A study of Mus musculus with 36 samples.

Results

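The comparison described here set the Ikaros line against the control line at 24 h, over all 469 miRNAs of the table. Its members were the 3 samples of the Ikaros line and the 3 samples of the control line that the labels place at 24 h, 6 of the 36 samples of the series. They were chosen by line and time and not by any measured value. Both lines derive from B3, a mouse pre-B cell line, and were made by retroviral transduction with a mouse stem cell virus vector. The Ikaros line carries haemagglutinin-tagged Ikaros joined to ERt2, a modified ligand-binding part of the estrogen receptor, and the control line carries ERt2 without Ikaros. Both vectors also encode GFP, on which the transduced cells of both lines were sorted. The labels give 4-hydroxy-tamoxifen (4-OHT), which moves an ERt2 fusion protein into the nucleus, at 0.5 uM for all samples. This includes the 0 h samples used below as a reference, which the methods of the study describe as untreated. The replicates 1, 2 and 4 of each line are cultures of separate batches, and samples of the same number in both lines share a culture batch. Each line is a transduced population of a single cell line, the Ikaros protein itself was not measured in these data, and the labels do not say whether a line is a clone.

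A miRNA is cut from a hairpin in a longer transcript. Each hairpin gives a 5p and a 3p arm, of which usually the more abundant, the guide arm, is loaded into the silencing complex, while the partner arm is mostly degraded. Bases 2 to 8 of the mature miRNA, the seed, pair with target mRNAs, so that miRNAs with a common seed form a family, whereas hairpins that lie close together on a strand are often made from a common transcript and form a cluster. Family and cluster can therefore cut across each other. Ikaros is a transcription factor of lymphocytes that promotes the exit of pre-B cells from the cycling stage and their differentiation, and miRNAs such as those of the miR-17-92 cluster, miR-181a, miR-150 and miR-34a are known to act in the early steps of B cell development.

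Of the 469 miRNAs, 394 had a mature sequence in the RefSeq table of GRCm38.p6, 391 by name and 3 through the hairpin name and the arm. The sequences that the results turn on are given 5′ to 3′ with the seed in capitals. The first set is the family with the seed AAAGUGC, whose members come from 3 clusters and were not all on the same side at 24 h.
miR-93-5p: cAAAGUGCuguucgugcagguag
miR-106b-5p: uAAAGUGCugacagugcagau
miR-17-5p: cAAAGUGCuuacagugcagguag
miR-20a-5p: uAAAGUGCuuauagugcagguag
miR-20b-5p: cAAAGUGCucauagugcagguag
miR-106a-5p: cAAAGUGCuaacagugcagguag

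The sets with the seeds AUUGCAC and GGCAGUG are shown for the same reason.
miR-25-3p: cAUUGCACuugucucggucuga
miR-92a-3p: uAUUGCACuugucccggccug
miR-92b-3p: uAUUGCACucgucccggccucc
miR-363-3p: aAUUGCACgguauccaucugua
miR-32-5p: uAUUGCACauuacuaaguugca
miR-34a-5p: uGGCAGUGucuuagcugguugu
miR-34b-5p: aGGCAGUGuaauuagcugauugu
miR-449a-5p: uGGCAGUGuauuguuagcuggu

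The next set shows miRNAs of the Clcn5 cluster, which had the largest positive differences although most of their seeds differ, and with them the pair miR-10a-5p and miR-10b-5p, which share a seed and differ at 1 of 23 bases.
miR-501-5p: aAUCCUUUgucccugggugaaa
miR-500-5p: aAUCCUUGcuaucugggugcuuagu
miR-362-3p: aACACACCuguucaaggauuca
miR-500-3p: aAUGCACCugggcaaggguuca
miR-532-3p: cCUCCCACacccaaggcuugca
miR-188-5p: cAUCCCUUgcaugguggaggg
miR-10a-5p: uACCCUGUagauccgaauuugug
miR-10b-5p: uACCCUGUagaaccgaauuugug

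The last set holds single miRNAs of high level or large difference that are described below.
miR-26a-5p: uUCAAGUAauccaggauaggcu
miR-21a-5p: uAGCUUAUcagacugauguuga
miR-298-5p: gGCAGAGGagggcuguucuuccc
miR-22-3p: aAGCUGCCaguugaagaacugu
miR-92a-1-5p: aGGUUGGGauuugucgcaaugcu
miR-27a-5p: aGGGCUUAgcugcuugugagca
miR-29c-3p: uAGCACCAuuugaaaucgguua

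The values are normalised levels on the log2 scale, so that a difference of 1 is a doubling, and a miRNA passed the test when the adjusted p-value of limma was under 0.05 over all 469. By this test 187 miRNAs (39.9%) differed between the lines at 24 h, 84 higher (17.9%) and 103 lower (22%) in the Ikaros line. The difference was at least 1 log2 unit for 37 of the higher and 58 of the lower miRNAs. The 3 samples of the lines did not overlap for 179 of the 187 and for 254 (54.2%) of all 469 miRNAs. The spread between replicates was small beside these differences, with a median standard deviation (SD) of 0.30 within lines, and correlations across miRNAs ran from 0.985 to 0.995 within a line and from 0.960 to 0.967 between the lines. Scaling moved the balance of higher and lower calls. Subtracting the median of each sample raised every difference by 0.23 and gave 111 higher and 65 lower, and quantile normalization gave 96 and 97. Of the 6 samples, control replicates 2 and 4 were sequenced in both sequencing batches and averaged by the authors, while control replicate 1 and the Ikaros samples were sequenced in the first alone. With control replicate 1 as the only control, 96 miRNAs passed, 93 of them among the 187, and all 187 had the sign of the full comparison. In that fit the control arm at 24 h is a single sample, assumed to vary like the other groups, from which the spread was taken, and the number of controls and the sequencing batch change together and cannot be told apart. In bulk samples fewer cells that make a miRNA and less of it per cell cannot be told apart. In the plot of level against difference, the miRNAs that passed were found at all levels.

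**Figure D1:**
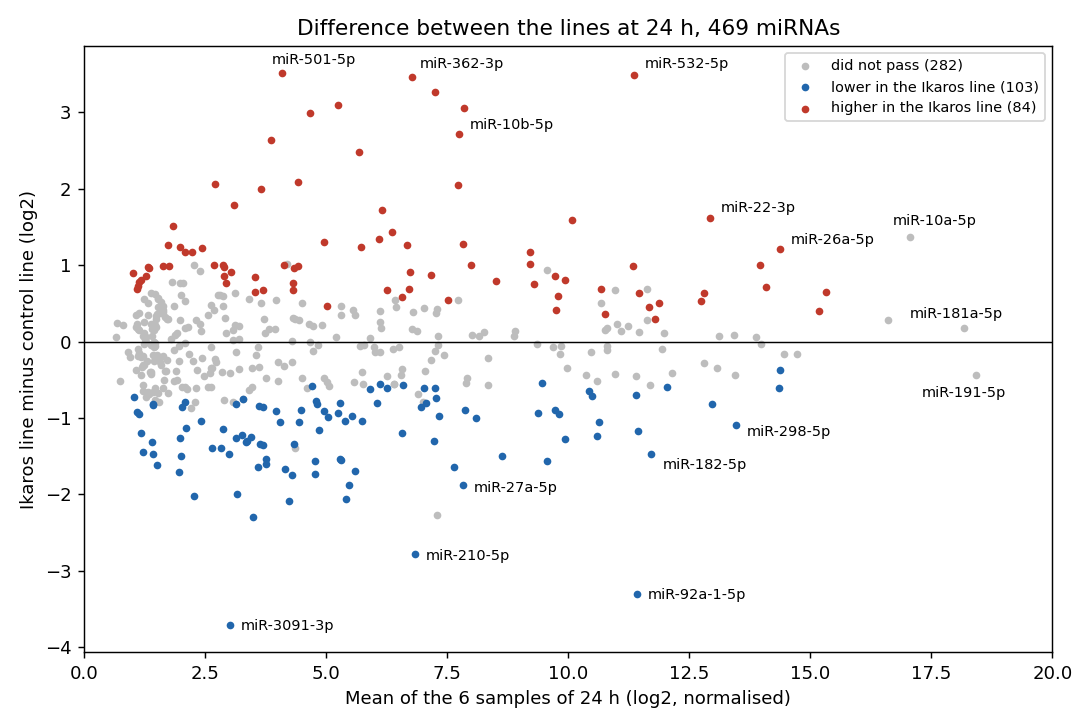
Difference between the lines at 24 h (Ikaros minus control, log2) against the mean level of the 6 samples (log2), with a point for each of the 469 miRNAs. Red points are the 84 higher, blue points the 103 lower and grey points those that did not pass; miR-532-5p and miR-92a-1-5p combine a high level with differences of 3.48 and -3.29.

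The most abundant miRNAs were few and held most of the signal. On the linear scale the 20 most abundant held 87.9% ± 0.80 of the summed values of Ikaros samples and 87.0% ± 0.29 of those of control samples (SD, n = 3, exact two-sided permutation p = 0.3). The 10 most abundant held 78.2% ± 0.84 and 76.3% ± 1.33 (exact permutation p = 0.1, the smallest that 3 against 3 samples allow). Of the 20, 5 were higher, 3 were lower and 12 did not pass, while 39.9% of all 469 miRNAs passed. The median difference of the 20 was 0.06, against -0.07 over all miRNAs. The 4 most abundant, miR-191-5p, miR-181a-5p, miR-10a-5p and miR-16-5p, were all among the 12.

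MiR-191-5p, the most abundant miRNA, stood at 18.68, 18.62 and 18.64 in the control line and at 18.44, 18.25 and 17.92 in the Ikaros line (replicates 1, 2 and 4, as in all lists of values below). All 3 Ikaros samples were below the control samples, but the difference of -0.44 did not pass (SE 0.22, adjusted p = 0.11). Such a lack of overlap between the lines, in either direction, was seen for 254 (54.2%) of all miRNAs. MiR-181a-5p, which tunes the strength of antigen receptor signals in developing lymphocytes, overlapped between the lines, with 17.89, 18.11 and 18.24 against 17.82, 18.49 and 18.45 in the Ikaros line. MiR-10a-5p, whose hairpin lies among the Hox genes of chromosome 11, stood at 16.60, 16.35 and 16.20 in the control line and at 18.27, 17.92 and 17.06 in the Ikaros line. The samples did not overlap, as for 54.2% of all miRNAs. The spread of the Ikaros samples was wide and the difference of 1.36 did not pass (SE 0.57, adjusted p = 0.058). It passed in a fit of the 6 samples alone, without Ikaros replicate 4 and with sample medians subtracted (adjusted p = 0.0049, 0.039 and 0.029). The lines were already apart at 0 h, where the mean of miR-10a-5p was 16.08 in the control line and 18.13 in the Ikaros line. In shares of the summed linear values, miR-191-5p held 30.6% ± 0.74 in the control line and 20.5% ± 2.35 in the Ikaros line, and miR-10a-5p 6.44% ± 0.95 and 15.5% ± 5.20 (SD, n = 3).

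Among the 5 abundant miRNAs that were higher, miR-26a-5p showed the largest difference. It stood at 13.71, 13.68 and 13.94 in the control line and at 14.99, 14.91 and 15.06 in the Ikaros line, a 2.30-fold higher level (log2 difference 1.20, SE 0.13, adjusted p = 1.4e-08). MiR-26a is known to repress Ezh2, a Polycomb methyltransferase, and is made from hairpins in an intron of Ctdspl and an exon of Ctdsp2, a pair of phosphatase genes. MiR-93-5p, of the miR-106b-25 cluster, stood between 13.68 and 13.74 in the control line and between 14.38 and 14.48 in the Ikaros line (0.71, SE 0.11, adjusted p = 1.1e-05). The other 3 depended on the processing. MiR-25-3p was higher by 0.65 (SE 0.16, adjusted p = 0.0020), miR-21a-5p, an miRNA often raised in tumours, by 0.40 (SE 0.14, adjusted p = 0.022) and miR-301a-3p by 1.00 (SE 0.41, adjusted p = 0.0498). With quantile normalization miR-25-3p did not pass (0.11, adjusted p = 0.75) and miR-21a-5p was at -0.04 (adjusted p = 0.89). MiR-21a-5p also did not pass with control replicate 1 as the only control (adjusted p = 0.094), nor without control replicate 1 (0.073) or Ikaros replicate 1 or 4 (0.052 and 0.053). MiR-301a-3p did not pass with control replicate 1 as the only control (adjusted p = 0.46), nor without control replicate 2 (adjusted p = 0.13), control replicate 4 (0.13), Ikaros replicate 1 (0.14) or Ikaros replicate 2 (0.14).

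The 3 abundant miRNAs that were lower were miR-298-5p, miR-181a-1-3p and let-7f-5p. MiR-298-5p stood at 14.23, 13.77 and 14.01 in the control line and at 12.94, 12.95 and 12.83 in the Ikaros line, so that its level there was 2.14-fold lower (log2 difference -1.10, SE 0.23, adjusted p = 0.00041). MiR-181a-1-3p, the partner arm of miR-181a-5p, was lower by 0.61 on the log2 scale (difference -0.61, SE 0.17, adjusted p = 0.0039), though it did not pass with sample medians subtracted (adjusted p = 0.12) or with control replicate 1 as the only control (0.080). Let-7f-5p, of the family that restrains Lin28 and Myc, differed by -0.38 (SE 0.12, adjusted p = 0.016) and lost the call with medians subtracted (-0.14, adjusted p = 0.51). It also did not pass in a fit of the 6 samples alone (adjusted p = 0.057), with control replicate 1 as the only control (0.29), or without control replicate 2 (0.059) or Ikaros replicate 2 (0.072). MiR-19b-3p varied with the replicate number rather than the line, from 14.19 and 14.46 in replicate 1 to 12.00 and 11.49 in replicate 4 of the control and the Ikaros line. Its SD was 1.09 and 1.52, the largest among the 20. The plot of the abundant miRNAs shows both kinds of spread.

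**Figure D2:**
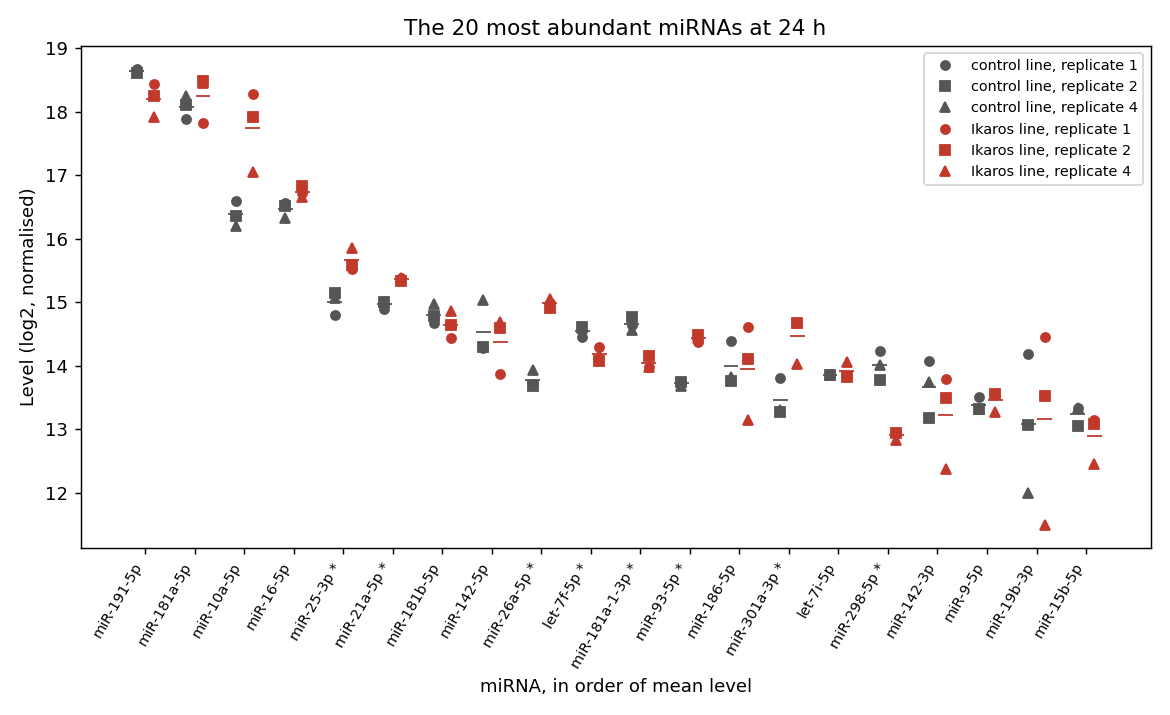
Level (log2) of the 20 most abundant miRNAs at 24 h in each sample, with grey symbols for the control line, red symbols for the Ikaros line, the symbol shape for the replicate number and bars for the means. Asterisks mark the 8 that passed; the samples of miR-26a-5p and miR-298-5p do not overlap between the lines, whereas those of miR-19b-3p span more than 2 log2 units within each line.

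The largest positive differences came from a cluster on the minus strand of chromosome X. Its 5 hairpins (Mir500, Mir501, Mir362, Mir188 and Mir532) lie between 7237683 and 7248497 (GRCm38) in introns of Clcn5, which encodes a chloride and proton exchanger of endosomes. All 10 measured arms were higher in the Ikaros line, against 17.9% of all 469 miRNAs, with a median difference of 3.08. All 10 were higher under every alternative that was run. They made up 8 of the 10 named miRNAs with the largest positive difference.

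MiR-532-5p was the most abundant of them, at 9.47, 9.68 and 9.69 in the control line and 13.15, 13.18 and 12.97 in the Ikaros line, an 11.2-fold higher level (log2 difference 3.48, SE 0.23, adjusted p = 4.2e-13). MiR-501-5p stood at 2.16, 2.49 and 2.37 and at 5.97, 6.09 and 5.47, and miR-362-3p at 5.14, 5.08 and 4.92 and at 8.73, 8.60 and 8.21, which gave differences of 3.50 and 3.46. No sample of these miRNAs overlapped between the lines, as for 179 of the 187 that passed. The smallest difference of the cluster was that of miR-501-3p (1.58, SE 0.33, adjusted p = 0.00031), so that the arms of Mir501 differed from each other by more than 1.5 log2 units. For several arms Ikaros replicate 4 was the lowest of its line: miR-362-5p stood at 9.81, 8.64 and 7.76 and miR-500-5p at 6.01, 5.45 and 4.06, against 7.11, 6.36 and 6.61 and 2.98, 2.39 and 2.22 in the control line. At 0 h 9 of the 10 arms were already higher, against 4.48% of all miRNAs, with a median difference of 1.52, and for 5 of them the difference at 24 h exceeded that at 0 h by the test.

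The other 2 of the 10 were miR-10b-5p and miR-28a-3p. MiR-10b-5p, from the Hoxd genes on chromosome 2, stood at 6.67, 6.17 and 6.32 in the control line and at 10.10, 9.38 and 7.80 in the Ikaros line (2.71, SE 0.68, adjusted p = 0.0021). Its difference at 0 h was 2.73, so that the lines differed as much before induction. With control replicate 1 as the only control it did not pass (2.43, adjusted p = 0.083). Because miR-10a-5p and miR-10b-5p differ at 1 base and the first is far more abundant, reads of one could have been counted for the other, and this was not tested. The partner arm miR-10a-3p was higher as well (1.24, SE 0.25, adjusted p = 0.00026; 2.14 at 0 h). MiR-28a-3p, from an intron of Lpp, stood at 4.50, 4.44 and 4.38 and at 7.33, 6.59 and 6.83 (2.48, SE 0.28, adjusted p = 3.0e-08), and its 5p arm was higher too (1.44, adjusted p = 5.5e-05).

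The family of the seed AAAGUGC was split between its clusters. These miRNAs come from 3 related clusters: miR-17-92 in the host transcript Mir17hg on chromosome 14, miR-106a-363 on chromosome X and miR-106b-25 in Mcm7 on chromosome 5. All 3 are known to promote the cell cycle, and Mcm7 encodes a subunit of the replicative helicase. MiR-93-5p of the Mcm7 cluster was higher (0.71), whereas miR-20a-5p of miR-17-92 (-0.82, SE 0.24, adjusted p = 0.0066) and miR-20b-5p (-1.17, SE 0.19, adjusted p = 1.2e-05) and miR-106a-5p (-0.93, SE 0.35, adjusted p = 0.035) of miR-106a-363 were lower. MiR-106b-5p (0.67, adjusted p = 0.11) and miR-17-5p (-0.56, adjusted p = 0.20) had the sign of their own cluster and did not pass. MiR-20b-5p stood at 11.95, 12.19 and 11.97 in the control line and between 10.53 and 11.07 in the Ikaros line, and miR-20a-5p at 13.35, 13.46 and 13.35 and at 12.91, 12.64 and 12.16. Neither overlapped between the lines, as for 179 of the 187 that passed. MiR-20a-5p did not pass with control replicate 1 as the only control (adjusted p = 0.10), without Ikaros replicate 4 (0.060) or with sample medians subtracted (0.0501). MiR-106a-5p did not pass under either scaling alternative (adjusted p = 0.14 with medians subtracted, 0.087 with quantile normalization), with control replicate 1 as the only control (0.44), or without control replicate 2 (0.16) or 4 (0.060) or Ikaros replicate 1 (0.16) or 4 (0.068). The mature sequences of the family are close, since miR-106a-5p differs from miR-17-5p at 1 base, while miR-93-5p differs from the 4 miRNAs of the other clusters at 3 or 4 of 23 bases, so that the values of the closest pairs may share reads.

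The same split was seen by cluster, beside 17.9% higher and 22% lower over all 469 miRNAs. Of the 6 measured arms of the Mcm7 cluster (5: 138165321 to 138165818, minus strand) 4 were higher, with a median difference of 0.67, and none was lower. The arms that were higher were miR-93-5p, miR-93-3p (0.67), miR-106b-3p (0.79) and miR-25-3p, of which miR-93-3p did not pass without replicate 1 of either line (adjusted p = 0.051 and 0.058). Of the 10 listed arms of miR-106a-363 (X: 52741693 to 52742567, minus strand) all 10 were lower, with a median of -1.29 and a range from -2.29 for miR-19b-2-5p to -0.93 for miR-106a-5p. MiR-363-3p stood at 10.97, 11.28 and 11.25 in the control line and at 9.84, 10.09 and 10.43 in the Ikaros line. MiR-18b-3p stood at 8.18, 8.51 and 8.70 and at 6.72, 6.85 and 6.91. There was no overlap in either, as for 179 of the 187 that passed. At 0 h 6 of the 10 were already lower, against 4.05% of all miRNAs, and for none did the difference at 24 h go beyond that at 0 h by the test. MiR-92a-3p and miR-19b-3p, which are made both from this cluster and from miR-17-92, were not in the list and did not pass.

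In miR-17-92 (14: 115043671 to 115044506, plus strand) the 6 arms listed as partner arms were all lower, against 22% of all 469 miRNAs, with a median of -1.36. Of the 6 listed as guide arms 1 was lower, miR-20a-5p, and their median was -0.48, and the difference between the lists was not tested. In these samples miR-17-3p, listed as a partner arm, stood at a mean level of 7.26, above miR-17-5p, whose 6 samples ran from 5.74 to 7.11. The arms of Mir17 (5p -0.56, 3p -0.74) and of Mir18 (5p -0.57, 3p -0.63) had differences of similar size. MiR-92a-1-5p, a partner arm of high level, stood at 13.16, 12.99 and 13.03 in the control line and at 9.77, 10.02 and 9.51 in the Ikaros line, a 9.81-fold lower level (log2 difference -3.29, SE 0.17, adjusted p = 2.0e-15). Its guide arm miR-92a-3p stood at 11.86, 12.56 and 12.62 and at 11.47, 11.87 and 12.44, with overlapping samples (-0.41, SE 0.27, adjusted p = 0.23). The sum of both sources of miR-92a-3p, on chromosomes 14 and X, is what was measured. MiR-19b-1-5p stood at 6.97, 6.14 and 6.18 and at 4.69, 4.48 and 3.95 (-2.06), and miR-20a-3p at 4.97, 4.91 and 5.08 and at 3.83, 3.17 and 2.96 (-1.67), with SE of 0.35 and 0.24 and adjusted p-values of 2.6e-05 and 2.1e-06. With sample medians subtracted, or with control replicate 1 as the only control, 4 of the 6 partner arms passed. The seed CUGCAGU, shared by the 3p arms miR-17-3p, miR-20b-3p and miR-106a-3p of the same clusters, was lower in all 3 (-0.74, -1.26 and -1.35).

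The families of the other printed seeds were mixed too. With the seed AUUGCAC, miR-25-3p was higher (0.65), miR-363-3p (-1.05, SE 0.20, adjusted p = 8.6e-05) and miR-92b-3p (-0.99, SE 0.25, adjusted p = 0.0024) were lower, and miR-92a-3p and miR-32-5p did not pass (-0.41 and -0.18). MiR-92b-3p did not pass with control replicate 1 as the only control (adjusted p = 0.21). With the seed GGCAGUG, miR-34a-5p (-0.90, SE 0.17, adjusted p = 0.00010) and miR-34b-5p (-1.57, SE 0.41, adjusted p = 0.0028) were lower and miR-449a-5p was higher (0.68, SE 0.26, adjusted p = 0.034). MiR-449a-5p was of low level, at 3.57, 3.35 and 3.14 in the control line and 3.61, 4.17 and 4.31 in the Ikaros line, and did not pass with control replicate 1 as the only control (adjusted p = 0.42), in a fit of the 6 samples alone (0.065), nor without control replicate 2 or 4 or Ikaros replicate 2 or 4. The seed AGCAGCA of the miR-15/16 family, which restrains cyclins and Bcl2, had 3 of 6 members higher and none lower by the test. Those higher were miR-15a-5p (0.45), miR-497-5p (0.84) and miR-195a-5p (0.97), against 17.9% higher over all 469 miRNAs. MiR-15b-5p, among the 20 most abundant miRNAs, had the other sign (-0.35) and did not pass. MiR-16-5p, the most abundant of the 6 members, was at 0.28 (adjusted p = 0.090) in the deposited values, 0.51 (adjusted p = 0.0072) with medians subtracted and -0.46 (adjusted p = 0.091) with quantile normalization. With control replicate 1 as the only control 1 member passed, miR-195a-5p, and 2 passed without control replicate 1 or 2.

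The miRNAs of the miR-34 family are activated by p53 and halt the cell cycle. Of the 8 listed arms of miR-34 and miR-449 6 were lower, against 22% of all 469 miRNAs, with a median of -1.50. MiR-34c-5p, the most abundant arm of the cluster of miR-34b and miR-34c on chromosome 9 (51103034 to 51103645, minus strand), stood at 10.25, 10.21 and 10.58 in the control line and 8.82, 8.89 and 8.63 in the Ikaros line, a 2.96-fold lower level (-1.56, SE 0.23, adjusted p = 3.8e-06). All 4 arms of that cluster were lower, within a narrow range from -1.57 to -1.47, and all 4 under every alternative except control replicate 1 as the only control, where 3 passed. MiR-34a-3p stood at 4.93, 5.32 and 5.58 and at 3.02, 3.48 and 3.07, a larger difference than that of its guide arm (-2.09 against -0.90).

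The cluster of miR-23a, miR-27a and miR-24-2 on chromosome 8 (84208518 to 84208921, plus strand), which is known to hold back B cell development, had 4 of 5 measured arms lower, and for all 4 the difference at 24 h went beyond that at 0 h. MiR-27a-5p stood at 8.92, 8.62 and 8.74 in the control line and at 7.09, 7.03 and 6.54 in the Ikaros line (-1.87, SE 0.19, adjusted p = 4.2e-09). MiR-23a-5p (-2.02), miR-24-2-5p (-1.24) and miR-24-3p (-0.70) were also lower, and miR-23a-3p did not pass (-0.45, adjusted p = 0.14). MiR-24-3p is also made from a hairpin on chromosome 13, where miR-23b-3p was higher (0.59, SE 0.22, adjusted p = 0.030). Over the 10 listed arms of both clusters 6 were lower and 1 was higher, against 22% and 17.9% of all 469 miRNAs. When a sample was left out 4 to 6 were lower, and 3 with sample medians subtracted. MiR-24-3p did not pass with medians subtracted (adjusted p = 0.061), with control replicate 1 as the only control (0.081) or without Ikaros replicate 4 (0.053). MiR-23b-3p did not pass with control replicate 1 as the only control, nor without control replicate 1 or 2 or Ikaros replicate 2 or 4.

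A further cluster with a common direction was that in the introns of Sfmbt2 on chromosome 2, a Polycomb gene with a large block of repeated rodent miRNAs. The list used for it was made by name (miR-297, miR-466, miR-467 and miR-669) and not by position. Of the 35 measured miRNAs with these names 19 were lower and none was higher, with a median of -0.76. The shares over all 469 miRNAs were 22% lower and 17.9% higher. By position, the blocks of hairpins in these introns held 17 and 7 measured miRNAs. Of these, 10 and 3 were lower and none was higher. MiR-467c-5p was at 9.37, 9.48 and 9.30 in the control line and at 7.77, 8.08 and 7.82 in the Ikaros line (-1.49, SE 0.15, adjusted p = 3.1e-09), and miR-669f-3p at 6.16, 6.04 and 6.06 and at 4.65, 4.25 and 4.71 (-1.55). The members are near copies of each other, so that their reads may be shared and the 19 are not separate observations. With sample medians subtracted 11 were lower, with control replicate 1 as the only control 8, and without a sample 14 to 19. On the other side, 6 of 12 arms of the cluster of miR-322, miR-503, miR-351, miR-542 and miR-450 (X: 53047997 to 53054349, minus strand) were higher and none was lower, with a median of 0.76, of which miR-351-5p was the most abundant (0.99, SE 0.39, adjusted p = 0.043). With control replicate 1 as the only control 3 were higher. MiR-351-5p did not pass there (adjusted p = 0.30), nor without any of the control replicates or Ikaros replicate 1 or 2 (0.064 to 0.14).

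Smaller groups followed. The miR-29 family, which represses DNA methyltransferases and Mcl1, had 4 of 7 arms higher, led by miR-29c-3p, at 5.04, 5.43 and 5.40 in the control line and 6.97, 6.96 and 7.09 in the Ikaros line (1.71, SE 0.17, adjusted p = 2.8e-09). Of the 4, 2 passed without Ikaros replicate 1 and 1 with control replicate 1 as the only control. Of miR-26 and miR-101, 3 of 7 arms were higher, and all 3 were arms of miR-26. Without control replicate 1 or Ikaros replicate 4 the count was 2 of 7. The pair miR-130b and miR-301b on chromosome 16 had 3 of 4 arms lower, with miR-301b-5p at 5.46, 5.67 and 5.75 and at 3.86, 3.79 and 4.04 (-1.73, SE 0.32, adjusted p = 8.0e-05). The arm that did not pass, miR-301b-3p (0.69), was more abundant than miR-301b-5p, with mean levels of 11.64 and 4.76. With sample medians subtracted 1 of the 4 arms was lower. MiR-200b-3p stood at 5.12, 5.08 and 5.31 and at 3.46, 3.55 and 3.26 (-1.75), and 3 of the 5 arms of its cluster on chromosome 4 were lower, with 1 lower with sample medians subtracted and 1 with control replicate 1 as the only control. In Mirg on chromosome 12, miR-541-5p, miR-409-3p and miR-410-3p were lower (-1.39, -0.72 and -1.50). MiR-541-5p and miR-410-3p were already lower at 0 h (-2.45 and -1.63), and the median of the 3 was -1.63 at 0 h and -1.39 at 24 h. Without control replicate 2, or with sample medians subtracted, 1 of these passed, and with control replicate 1 as the only control 0 of 3 passed by limma.

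The largest negative difference over all miRNAs, -3.70, was that of a miRNA with a level below the median, which the rule for names left out. Of the remaining named miRNAs with large negative differences, miR-210-5p, the partner arm of a hairpin induced by low oxygen, stood at 7.37, 8.20 and 9.11 in the control line and at 5.04, 5.22 and 6.07 in the Ikaros line (-2.78, SE 0.56, adjusted p = 0.00023). With control replicate 1 as the only control it did not pass (-1.93, adjusted p = 0.080). The other arm of that hairpin, miR-210-3p, was the more abundant, with a mean level of 9.36 against 6.84. Its difference was -0.04 and did not pass. MiR-339-3p stood at 6.21, 5.97 and 7.07 and at 4.52, 4.49 and 4.61 (-1.88, SE 0.27, adjusted p = 2.6e-06), and miR-7a-5p at 6.54, 6.51 and 6.24 and at 5.23, 5.02 and 3.98 (-1.69, SE 0.39, adjusted p = 0.00097). The samples of miR-210-5p, miR-339-3p and miR-7a-5p did not overlap between the lines, as for 179 of the 187 that passed.

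Lists whose members passed in both directions or rarely are given by their counts. Over all 469 miRNAs 17.9% were higher and 22% lower, and several of these counts are near those shares. Of the miR-181 family 2 arms were higher and 1 was lower of 8, with a median of 0.00. The guide arms of let-7 had 1 higher and 1 lower of 6, and their partner arms 3 lower of 7, with 1 without Ikaros replicate 1 or with control replicate 1 as the only control. Of the miR-30 family 1 of 8 was higher, of miR-148 and miR-152 2 of 5 were higher, and of the miR-10 and miR-99 family 2 were higher and 2 lower of 8. Of the family of miR-130 and miR-301, 1 was higher and 3 were lower of 6. MiR-221-3p, which marks early progenitors, was the 1 of 4 arms of miR-221 and miR-222 that was lower (-0.94, SE 0.18, adjusted p = 0.00013), as it was at 0 h (-0.91). Of miR-132 and miR-212 1 of 4 was lower, and of the miR-182, miR-183 and miR-96 cluster 1 of 2, miR-182-5p (-1.47, SE 0.37, adjusted p = 0.0019). Of 7 lymphocyte regulators 1 was lower, miR-155-3p (-1.34, SE 0.25, adjusted p = 0.00010), while miR-155-5p, a regulator of activated lymphocytes, stood at 10.79, 11.02 and 10.87 and at 11.17, 11.06 and 11.12 (0.23, adjusted p = 0.34). Of 8 abundant blood miRNAs 2 were higher, a count that was 0 without control replicate 1 or Ikaros replicate 4, with control replicate 1 as the only control and with quantile normalization. Of the miR-181 family, 0 of 8 passed with control replicate 1 as the only control. The plot of families and clusters gives these lists beside each other.

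**Figure D3:**
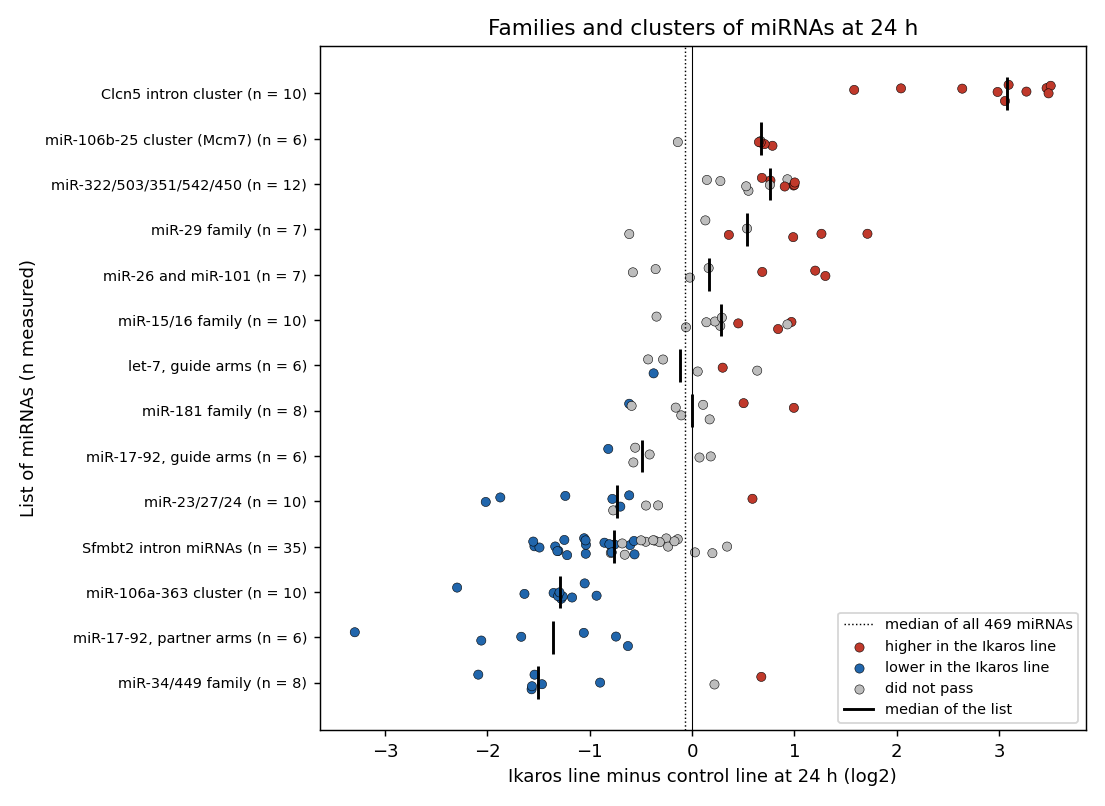
Difference between the lines at 24 h (log2) for each measured miRNA of 14 lists, with red for higher, blue for lower and grey for those that did not pass, a black bar for the median of a list and a dotted line for the median of all miRNAs. The Clcn5 cluster lies between 1.58 and 3.50, while all listed arms of miR-106a-363 and all partner arms of miR-17-92 lie below -0.6.

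Whether both arms of a hairpin moved together was examined for the hairpins that are the only source of both of their measured arms. Both arms passed in 27, with 14 higher and 12 lower in both and 1 in opposite directions, 1 arm passed in 49 and neither in 49. The differences of the arms correlated with r = 0.71 across hairpins, a description over arms of the same libraries. The hairpin with opposite calls, named after its values were seen, was Mir1198 in an intron of Gripap1 on chromosome X. MiR-1198-5p was higher (1.01, SE 0.14, adjusted p = 1.0e-06) and miR-1198-3p lower (-0.84, SE 0.26, adjusted p = 0.012), and the latter lost its call with control replicate 1 as the only control (adjusted p = 0.13), with medians subtracted (0.081), and without control replicate 4 (0.090) or Ikaros replicate 2 (0.081). Mir22 was among the 14, and miR-22-3p was the most abundant of the miRNAs outside the rule for names that differed by more than 1 log2 unit upwards. It stood at 12.04, 12.05 and 12.24 in the control line and at 13.72, 13.66 and 13.81 in the Ikaros line, a 3.07-fold higher level (1.62, SE 0.13, adjusted p = 4.1e-11), and miR-22-5p was higher by 1.78 (adjusted p = 3.9e-06).

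**Figure D4:**
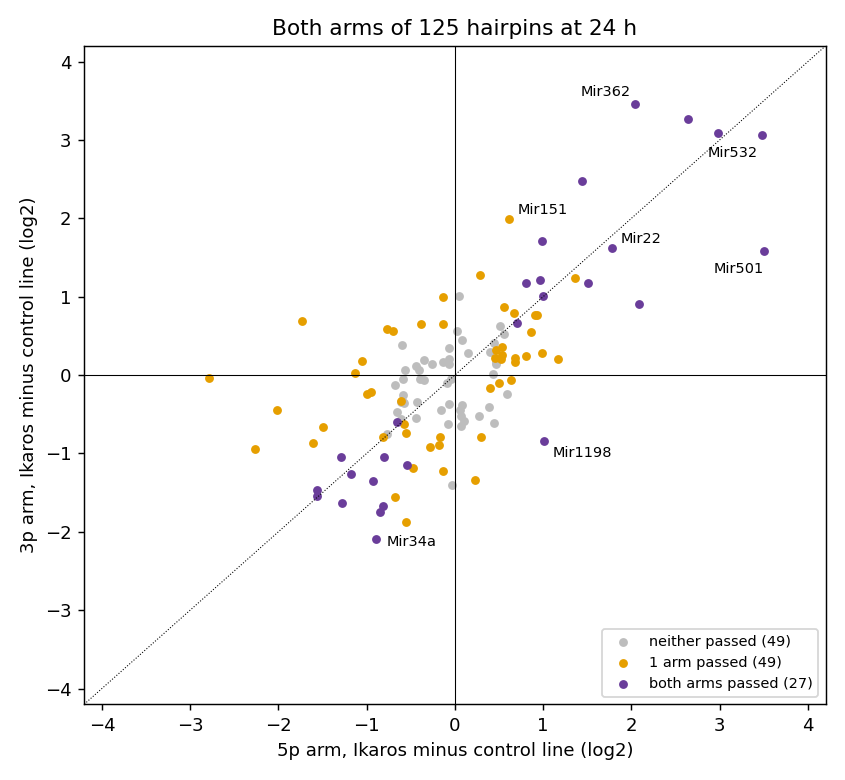
Difference between the lines at 24 h for the 3p arm against that for the 5p arm (both log2) of the same hairpins, with purple for both arms passed (27), orange for 1 arm (49), grey for neither (49) and a dotted line for equal differences. Mir532 and Mir362 lie far above 0 in both arms, and Mir1198 is the purple point with arms of opposite sign.

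The differences at 24 h were then set against those of the same lines at 0 h, in cultures of other batches. Of the 84 miRNAs that were higher at 24 h, 17 were also higher and 1 was lower at 0 h, and of the 103 lower ones 15 were also lower. Over all 469 miRNAs, 21 were higher (4.48%) and 19 lower (4.05%) at 0 h. The difference at 24 h departed from that at 0 h for 58 miRNAs, 27 upwards (5.76%) and 31 downwards (6.61%). Upward changes beyond 0 h included miR-26a-5p (1.40, adjusted p = 3.2e-06), miR-22-3p (1.50, adjusted p = 1.1e-06) and miR-29c-3p (1.38, adjusted p = 0.00018). Downward changes included 4 of the 6 partner arms of miR-17-92, miR-467c-5p (-1.28, adjusted p = 9.4e-05) and 4 other miRNAs of the list by name described with Sfmbt2. MiR-21a-5p was the miRNA that changed sides, with -0.81 at 0 h (adjusted p = 0.00012) and 0.40 at 24 h. MiR-146a-5p, an inhibitor of NF-kB signalling, was higher at 0 h (1.36, adjusted p = 3.1e-05) and stood at 0.07 at 24 h. With control replicate 1 as the only control at 24 h, 24 miRNAs departed from 0 h.

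**Figure D5:**
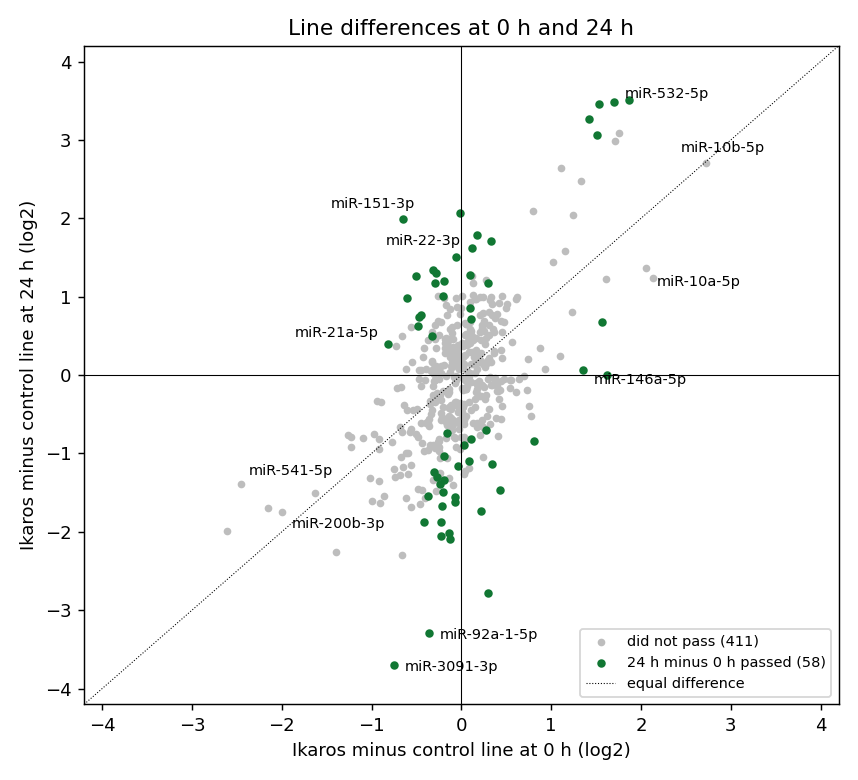
Difference between the lines at 24 h against that at 0 h (both log2) for the 469 miRNAs, with green for the 58 whose difference at 24 h departed from that at 0 h and a dotted line for equal differences. MiR-532-5p lies above the line after a difference of 1.70 at 0 h, miR-92a-1-5p lies at -0.37 and -3.29, and miR-10b-5p and miR-200b-3p lie close to the line.

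The nearest earlier time was 18 h. None of the 469 miRNAs (0%) had a difference at 24 h that departed from that at 18 h by limma, with 28 at an unadjusted p under 0.05, and with quantile normalization 1 passed. Of the 84 higher miRNAs of 24 h, 48 were also higher at 18 h, and of the 103 lower ones 69 were also lower. Over all 469 miRNAs, 61 were higher (13%) and 79 lower (16.8%) at 18 h. MiR-21a-5p was at -0.21 at 18 h (adjusted p = 0.26).

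Markers of blood cells and of the B lineage were present, and the list held none for the pre-B stage alone. MiR-142-5p and miR-142-3p, which mark blood cells, stood at 14.54 and 13.66 in the control line and at 14.38 and 13.22 in the Ikaros line, and miR-181a-5p was the second most abundant miRNA. MiR-150-5p, which is low in precursors and rises in mature lymphocytes, stood at 4.27 and 3.75. None of the 6 measured B-lineage and blood markers passed by limma or any alternative of the test, while 39.9% of all 469 miRNAs passed by limma. The summed share of these markers in the linear values ran from 23.1% to 28.8% in the control line and from 18.5% to 31.4% in the Ikaros line. Of 22 listed markers of other cell types 8 were in the table, and those of liver, muscle, red cells and embryonic stem cells were not among them. Their summed share was 0.766% to 0.883% and 0.752% to 0.788%, nearly all of it from miR-9-5p, which is known from neurons and stood at 13.38 ± 0.11 and 13.46 ± 0.16 (SD, n = 3). Of the 8, 2 were higher, miR-223-3p of myeloid cells and miR-126a-3p of endothelium, and 2 were lower, miR-200b-3p and miR-429-3p of epithelium. These counts are near the shares over all 469 miRNAs, 17.9% higher and 22% lower. The other measured markers of epithelium, miR-200c-3p and miR-141-3p, did not pass (-0.13 and 0.03). MiR-223-3p was of low level, at 1.78, 1.91 and 1.30 in the control line and 3.51, 4.58 and 3.09 in the Ikaros line (2.06, SE 0.45, adjusted p = 0.00052), and at -0.02 at 0 h. MiR-429-3p did not pass with medians subtracted or with control replicate 1 as the only control (adjusted p = 0.055 and 0.12). MiR-126a-3p (0.67) was higher and miR-200b-3p and miR-429-3p (-0.81) were lower at 0 h as well (1.57, -1.99 and -1.10). The part of other cells in the line difference was not tested.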

How the data were processed

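The authors made TruSeq small RNA libraries of both B3 lines, mapped them with Novoalign on miRBase and counted reads with multiBamCov of bedtools. The submitters' processing notes name the build mm10. The deposited table is in log2 units. By the methods of the study, the authors had filtered it on CPM (NOISeq), adjusted it for GC content (cqn), scaled it by TMM and removed the effect of the sequencing batch (ComBat), and a mean stands for technical replicates. The terms of the ComBat model are not given in the sources used here, and the sequencing batch of each sample of 24 h was read from the drawing of the study's design. It holds no counts, so depth is unknown and precision rests on 3 replicates per group.

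The deposited log2 values were fitted with limma 3.58.1 in R 4.3.3 (lmFit, eBayes with a mean-variance trend) over all 36 samples, with a mean for each of 12 groups. Adjustment was by Benjamini and Hochberg over 469 miRNAs, with a threshold of 0.05. The fit was tested on simulated data. The contrasts were the line difference at 24 h, and this difference less that at 0 h or at 18 h. Permutation tests of shares were exact.

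Named miRNAs were the 20 of highest mean at 24 h and, in each direction, the 10 largest differences among those that passed, had the same sign in the 3 same-numbered pairs and had a mean at or above the median of all. To these came lists of families and clusters, and groups by seed or by hairpins within 10 kb on the same strand, with at least 3 measured miRNAs. The members and lists were chosen with earlier results of these data known. Positions are those of hairpins of the same name in RefSeq and GENCODE M21 (GRCm38), found for 460 miRNAs.

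Same-numbered samples of both lines share a culture batch per the labels. Their deviations from the group means correlated across miRNAs with r = 0.36, -0.05 and 0.35 for replicates 1, 2 and 4. Alternatives were a fit of the times compared alone, the culture batch as a replicate block, subtraction of sample medians, quantile normalization, a mean of at least 3 on the log2 scale, no mean-variance trend, control replicate 1 as the only control of 24 h (the first sequencing batch) and leaving out each sample of 24 h. Annotation used pandas 2.3.3 and numpy 2.4.6 in Python 3.11.15, and figures matplotlib 3.10.9.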

Additional observations from a re-analysis of the deposited data

Results flagged for a closer look

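The line difference at 24 h departed from that at 0 h for 58 of the 469 miRNAs by the limma test of the difference of differences. Among the named miRNAs the change was downwards for miR-210-5p (-3.07), miR-92a-1-5p (-2.93), miR-34a-3p (-1.96), miR-301b-5p (-1.95), miR-19b-1-5p (-1.84), miR-339-3p (-1.65), miR-27a-5p (-1.45), miR-20a-3p (-1.45) and miR-298-5p (-1.19). It was upwards for miR-93-5p (0.60), miR-21a-5p (1.21), miR-26a-5p (1.40), miR-532-3p (1.55), miR-501-5p (1.64), miR-532-5p (1.79), miR-500-3p (1.85) and miR-362-3p (1.93). For the 5 miRNAs of the Clcn5 cluster in this list the lines already differed at 0 h in the same direction, and for miR-21a-5p in the other. In both lines, the cultures of 0 h and of 24 h were from different batches.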

How the results depend on the processing

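In a fit with a replicate block for the culture batch, 189 miRNAs passed at 24 h, 4 of the 187 did not, and 64 passed beyond 0 h, and the block changed no call of a named miRNA. Numbers that moved by more than 1.5 times came from control replicate 1 as the only control (96 at 24 h, 46 higher and 50 lower; 24 beyond 0 h, 11 upwards and 13 downwards), from subtraction of sample medians (65 lower at 24 h, 16 downwards beyond 0 h) and from quantile normalization (1 beyond 18 h, downwards). Leaving out a sample of 24 h gave 149 to 165 miRNAs. The cause of these changes was not tested. The difference in share was 1.87 percentage points for the 10 most abundant, and -0.40 for the 20 with quantile normalization, against 0.84. Of the 28 named miRNAs that passed, 21 passed under every alternative that tested them, and 1 changed sign, miR-21a-5p with quantile normalization (-0.035). Among those that did not pass, quantile normalization turned let-7i-5p (-0.17), miR-181a-5p (-0.18) and miR-16-5p (-0.46), and median subtraction turned miR-142-5p (0.076), miR-186-5p (0.20) and miR-181b-5p (0.075). Control replicate 1 as the only control turned miR-9-5p (-0.040), miR-142-5p (0.11) and miR-19b-3p (-1.03). Leaving out a sample gave both signs for let-7i-5p (-0.020 to 0.097), miR-142-5p (-0.31 to 0.10), miR-186-5p (-0.36 to 0.37) and miR-19b-3p (-0.58 to 0.91). Depth is unknown, the spread was pooled over all groups of 3 samples (over the other groups where a lone control was left), and differences of miRNAs with near copies may share reads.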
